A study of Zea mays with 18 samples.

Results

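In leaves of maize, 4 gene models named for gene families of jasmonate synthesis, repression and response were followed through 18 leaf libraries. They were TIFY4 (GRMZM2G445634), named for the TIFY repressor family, the lipoxygenase genes lox8 (GRMZM2G104843, also ts1) and lox10 (GRMZM2G015419), and the proteinase inhibitor gene MPI (GRMZM2G028393). They were chosen as named gene models, with earlier results of these data known, and were 4 of the 31855 gene models with deposited values. All 4 were above the filter on low values. TIFY4 is known here by its name alone, and whether it encodes a JAZ protein was not checked.

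Jasmonates are defence and development hormones made from plastid fatty acids. Lipoxygenases add oxygen to linolenic acid, and allene oxide synthase, allene oxide cyclase and oxophytodienoate reductase act in later steps. The JAZ proteins of the TIFY family hold MYC2-type transcription factors inactive until the active hormone causes them to be degraded, and many JAZ genes are themselves switched on by jasmonate. Proteinase inhibitors, which block digestive enzymes of leaf-eating insects, are classic wound and jasmonate targets in leaves. In maize, ts1 encodes a plastid lipoxygenase whose jasmonate product is needed for male flower development in the tassel, and lox10 is known for the green leaf volatiles and the wound-induced jasmonate of the leaf.

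The plants were the maize hybrid Xianyu 335 at grain filling. At high plant density, leaves were taken from the third leaf below the ear (HB), the ear leaf (HE) and the third leaf above the ear (HA), and at low density from the same positions (LB, LE and LA), with 3 libraries in each group. For LA the titles and the treatment labels contradict each other: the titles say low density and the labels high. LA is taken here by its titles, and each value given for LA carries that doubt. The plant numbers per hectare, the number of plants behind a library and the separateness of the 3 samples of a group are not stated in the labels, so p-values measure the spread between these samples, which may be technical.

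Values were deposited as RPKM, reads scaled to the length of a gene and the size of a library, whose sum over genes was 560984 to 595593 per library. A relative depth recovered from the rarest genes ran from 0.886 to 1.12. The 6 LE and LB libraries had 25749 to 26187 genes above 0, against 26271 to 27316 in the 12 others. Their relative depths were 0.918 to 0.957, inside the range of 0.886 to 1.12 of the 12 others. The leaf label was checked on C4 genes. pep1 (GRMZM2G083841), the phosphoenolpyruvate carboxylase of mesophyll cells, ran from 374 to 6486 RPKM over all libraries. The summed level of 3 bundle sheath gene models, ME1 and a pair named rbcS, ran from 631 to 1877 RPKM. In HB the pep1 level was 374 to 618 RPKM, against 2063 to 5264 RPKM in LB. The sum of 3 ageing-leaf genes (SGR2, ICL and LIP) was 186 to 608 RPKM in HB, against 4.28 to 8.59 RPKM in LB, and all 3 were called higher there. In HA and in LE, 1 of the 3 was at 0 in every library. The members' values in HB therefore come from leaves that also differed in these genes, whose part in the members' results was not tested. In whole leaves, a change in the share of a cell type and a change of RNA per cell cannot be told apart.

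The 4 members differed widely in level. lox10 was among the most abundant transcripts, with a mean of 606 RPKM over the 18 libraries that exceeded 99.8% of gene models. MPI averaged 204 RPKM, above 99.0% of gene models, and its highest library was 35.0 times its lowest. TIFY4 averaged 7.62 RPKM and had the widest range of the 4, with its highest library at 137 times its lowest. lox8 averaged 9.11 RPKM with a range of 5.20-fold, and lox10 had the narrowest range, 2.46-fold.

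**Figure D1:**
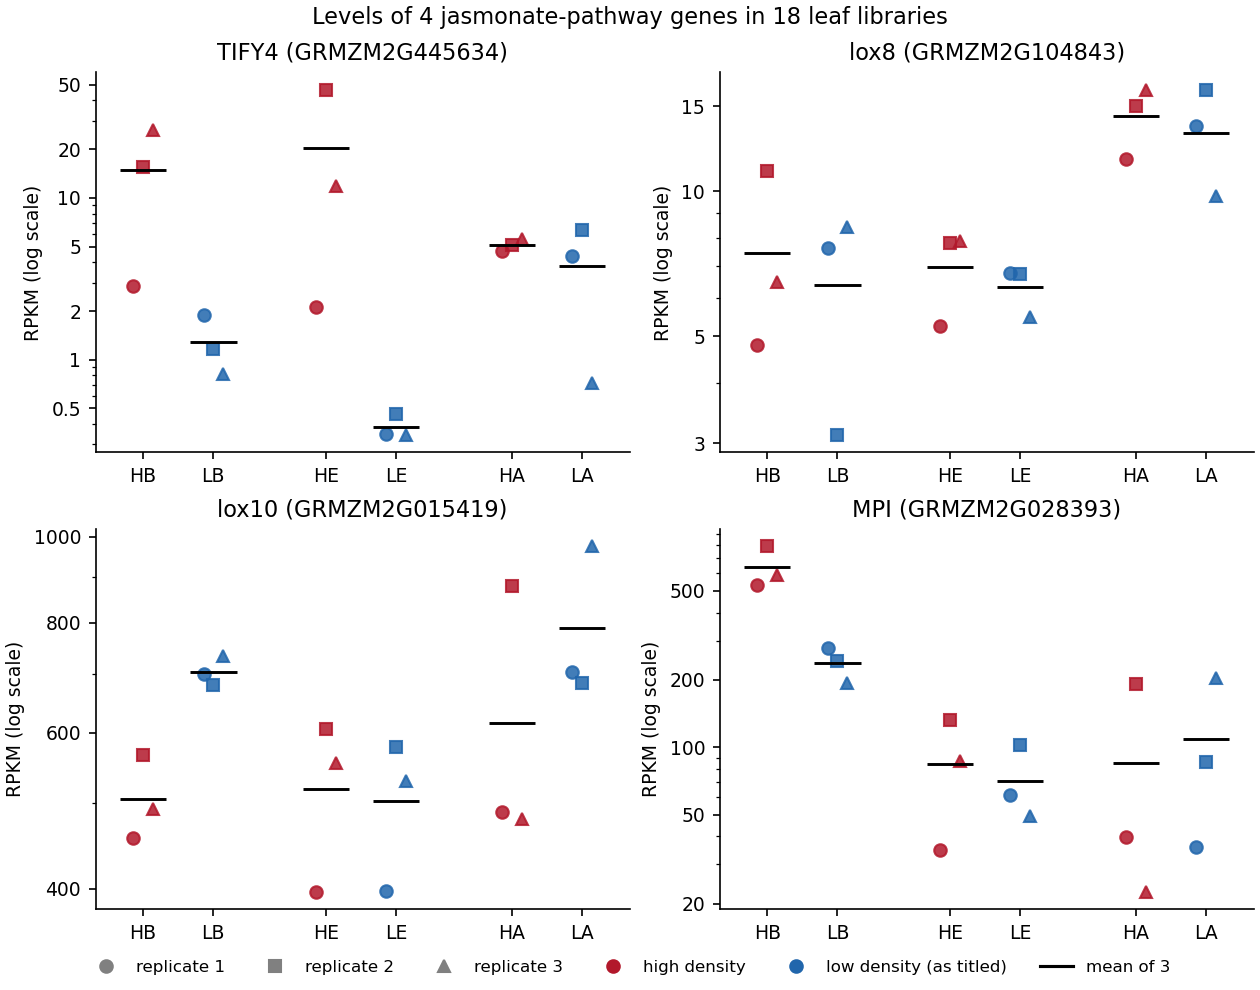
RPKM of TIFY4, lox8, lox10 and MPI on log axes in each of the 18 libraries, by group; symbols mark the replicate number, black lines the mean of 3, red high density and blue low density as titled. TIFY4 lies between 2.13 and 46.7 RPKM in HE, above the 0.342 to 0.465 RPKM of LE, and MPI lies between 530 and 790 RPKM in HB, above every other library.

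TIFY4 was higher at high density in both the ear leaf and the lower leaf. In HE the 3 libraries had 2.13, 46.7 and 11.8 RPKM, against 0.346, 0.465 and 0.342 RPKM in LE. All HE libraries lay above all LE libraries, as held in 1 direction or the other for 40.9% of tested genes, but the HE values spread over more than an order of magnitude, with replicate 2 highest and replicate 1 lowest. In HB they had 2.87, 15.6 and 26.4 RPKM, against 1.88, 1.16 and 0.818 RPKM in LB. These groups did not overlap either, as held for 39.9% of tested genes, and HB replicate 1 lay close to the highest LB library. In HA the libraries had 4.67, 5.10 and 5.59 RPKM, against 4.35, 6.29 and 0.721 RPKM in LA. The HA and LA libraries overlapped, and LA replicate 3 stood well below the other 2.

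The low TIFY4 values rested on few reads. After scaling by the recovered relative depth, all 18 TIFY4 values were whole multiples of 1 step, within a tolerance of 0.1, and the step was taken as 1 read. On that reading the HE libraries held 35, 763 and 187 reads, against 5, 7 and 5 reads in LE. The HB libraries held 40, 256 and 439 reads, against 28, 17 and 12 reads in LB. The HA libraries held 75, 90 and 97 reads, against 71, 109 and 11 reads in LA. The LE level of TIFY4 is thus known only coarsely, and a fold change against it carries that imprecision.

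On the log2(RPKM + 0.5) scale the TIFY4 difference between HE and LE was 3.70 ± 0.85 (SE; limma adjusted p = 0.0112), a fold of 13.0 on that scale. The difference was 4.48 with 0.1 RPKM added and 3.16 with 1 RPKM added, and both were called. The mean was 20.2 ± 23.5 RPKM in HE and 0.384 ± 0.070 RPKM in LE (SD, n = 3 each), a ratio of 52.6, which differs from the fold on the log scale in its averaging and in the added constant. limma called 13.9% of the 21184 genes tested in this comparison, 8.97% higher and 4.97% lower, at an adjusted p under 0.05. Of these calls 64.3% were higher, and 55.0% after median-ratio rescaling or 46.2% after quantile normalization. The TIFY4 call rested on HE replicate 2: without it the difference was 2.69 (limma adjusted p = 0.0610). Between HB and LB the TIFY4 difference was 2.71 ± 0.85 (SE; limma adjusted p = 0.0217), with means of 14.95 ± 11.8 RPKM in HB and 1.29 ± 0.54 RPKM in LB (SD, n = 3 each). In that comparison limma called 33.4% of genes, 22.1% higher and 11.3% lower. Higher calls made up 66.1% of these, and 47.3% and 45.8% after the same rescalings, which left TIFY4 called in both comparisons. The TIFY4 call between HB and LB was lost when HB replicate 2 (adjusted p = 0.0722), HB replicate 3 (0.104) or LB replicate 3 (0.0775) was left out.

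Other values also differed between these libraries, not all in the direction of TIFY4. HE replicate 2 was the highest of its group in 21 of the 35 other jasmonate-pathway genes tested and HE replicate 1 the lowest in 25. Replicate 2 was also most often the highest in each other group, from 17 of the 35 in LB to 21 in LE. In LB replicate 1 was close behind, with 16. The matching shares over all tested genes were not computed, so these counts do not show a trait of jasmonate genes. The summed bundle sheath level was 1529 to 1853 RPKM in HE, against 949 to 1342 RPKM in LE, and 751 to 1301 RPKM in HB, against 1479 to 1877 RPKM in LB. glossy2 (GRMZM2G098239), 1 of 2 tested epidermal wax genes, was higher in HE than in LE by 0.80 and in HB than in LB by 0.57 on the log2 scale (limma adjusted p = 0.00794 and 0.0170), and the call in the lower leaf was lost after median-ratio rescaling (adjusted p = 0.0801) and quantile normalization (0.207). The other wax gene, gl1 (GRMZM2G114642), was at 0.40 in HE against LE and -0.42 in HB against LB, neither called (limma adjusted p = 0.225 and 0.149). The part of these in the TIFY4 differences was not tested.

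Between HA and LA the TIFY4 difference was 0.71 ± 0.85 (SE; limma adjusted p = 0.825), with a 95% interval of -1.08 to 2.50. The density difference of the upper leaf minus that of the ear leaf, an interaction term, was -2.99 ± 1.20 (SE; unadjusted p = 0.0234, limma adjusted p = 0.266), so the contrast between these leaves did not pass the test. limma called 0.0% of genes in that interaction (0), with 15.5% at an unadjusted p under 0.05. The interaction of the lower with the ear leaf was -0.99 ± 1.20 (SE; limma adjusted p = 0.682), where 3.85% of genes were called. Groups ranked by their mean from HE through HB, HA, LA and LB to LE, and only LB and LE, last in that order, had separate ranges between neighbours. Between positions TIFY4 was not called: LA exceeded LE by 1.96 ± 0.85 (SE; limma adjusted p = 0.146), and the difference of HA from HE was -1.04 ± 0.85 (SE; limma adjusted p = 0.625). HB and HE differed by -0.02 (95% interval -1.81 to 1.77), which was 0.998 without HE replicate 2.

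Within its family TIFY4 was a minor transcript. It ranked ninth of 21 TIFY gene models by mean level in HE, with 4.45% ± 4.95 of the family's summed RPKM, against rank 13 and 0.0994% ± 0.0131 in LE (SD, n = 3 each). In HE replicate 2 it reached 10.01% of the family sum, the highest share in any library.

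lox8, the tasselseed lipoxygenase, had its highest levels in the upper leaf at both densities, and no difference of lox8 passed the test. It had 11.7, 14.98 and 16.2 RPKM in HA, against 5.24, 7.82 and 7.86 RPKM in HE. In LA it had 13.6, 16.2 and 9.78 RPKM, against 6.78, 6.73 and 5.48 RPKM in LE. At both densities all 3 libraries of the upper leaf lay above all 3 of the ear leaf, as did those of 23.4% of tested genes (either direction) between HA and HE and 32.8% between LA and LE. The lower leaf had 4.80, 11.02 and 6.48 RPKM in HB and 7.64, 3.12 and 8.43 RPKM in LB, overlapping the ear leaf at each density. By mean level the groups ran from HA through LA, HB, HE and LB to LE, each overlapping the next.

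The log2 difference of lox8 was 0.99 ± 0.32 between HA and HE (SE; unadjusted p = 0.00614) and 0.98 ± 0.32 between LA and LE (unadjusted p = 0.00656). Each is close to 2.0-fold, at 1.99 and 1.98. The limma adjusted p over all genes tested was 0.123 and 0.0688, so neither was called. limma called 2.44% and 5.74% of genes in these comparisons. When only the libraries of the compared groups entered the fit, both were called (limma adjusted p = 0.0303 and 0.0298). Same-numbered HA and HE libraries deviated from their group means together, with correlations across genes of 0.137 to 0.189. Those of HA and LB, which differ in density and position, did so at 0.187 to 0.257. A fit of those libraries alone with the replicate number as a block gave an adjusted p of 0.0108, and the block over all 18 libraries gave 0.112. With the block, limma called 987 genes from those libraries alone and 871 from all 18, against 516 without it. For density, lox8 differed by 0.12 on the log2 scale between HE and LE (95% interval -0.55 to 0.78), by 0.23 between HB and LB (-0.44 to 0.90) and by 0.13 between HA and LA (-0.54 to 0.79).

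lox10, the green leaf volatile lipoxygenase, was the most abundant lipoxygenase in every group. It made up 62.6% to 77.3% of the summed RPKM of the 11 lipoxygenase gene models, and its share averaged 74.9% ± 2.36 in HE and 71.2% ± 1.20 in LE (SD, n = 3 each). lox6, an atypical lipoxygenase, was second at 92.4 ± 9.17 RPKM in HB and 191 ± 38.4 RPKM in LB (SD, n = 3 each). lox11 (GRMZM2G009479), the closest paralog of lox10, was at 3.37 RPKM or less in every library. How the authors' counting treated reads shared by close paralogs was not given in the sources used here.

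The lox10 libraries had 457, 567 and 493 RPKM in HB, against 699, 679 and 733 RPKM in LB. The groups did not overlap, as for 39.9% of tested genes, and the HB mean was 0.718 times the LB mean. The log2 difference was -0.48 ± 0.24 (SE; limma adjusted p = 0.126), which was not called. In the ear leaf lox10 had 396, 606 and 554 RPKM in HE, against 397, 579 and 529 RPKM in LE. These groups overlapped almost completely, and the log2 difference of 0.04 had a 95% interval of -0.46 to 0.54. In the upper leaf it had 488, 881 and 480 RPKM in HA, against 704, 684 and 976 RPKM in LA. HA replicate 2 and LA replicate 3 stood apart from the other 2 of their groups, and the difference of -0.40 ± 0.24 was not called (SE; limma adjusted p = 0.647).

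Between leaf positions at low density, lox10 in LA exceeded LE by 0.65 ± 0.24 (SE; unadjusted p = 0.0142, limma adjusted p = 0.0967), and lox10 in LB exceeded LE by 0.51 ± 0.24 (SE; unadjusted p = 0.0479, limma adjusted p = 0.410). At each of these positions the 3 libraries lay above all 3 of LE, where 32.8% of tested genes (LA against LE) and 13.9% (LB against LE) did not overlap, and neither difference was called. At high density the same log2 differences were 0.21 (95% interval -0.29 to 0.71) between HA and HE and -0.02 (-0.52 to 0.48) between HB and HE. By mean level the groups ran from LA through LB, HA, HE and HB to LE, and every pair of neighbours in that order overlapped.

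**Figure D2:**
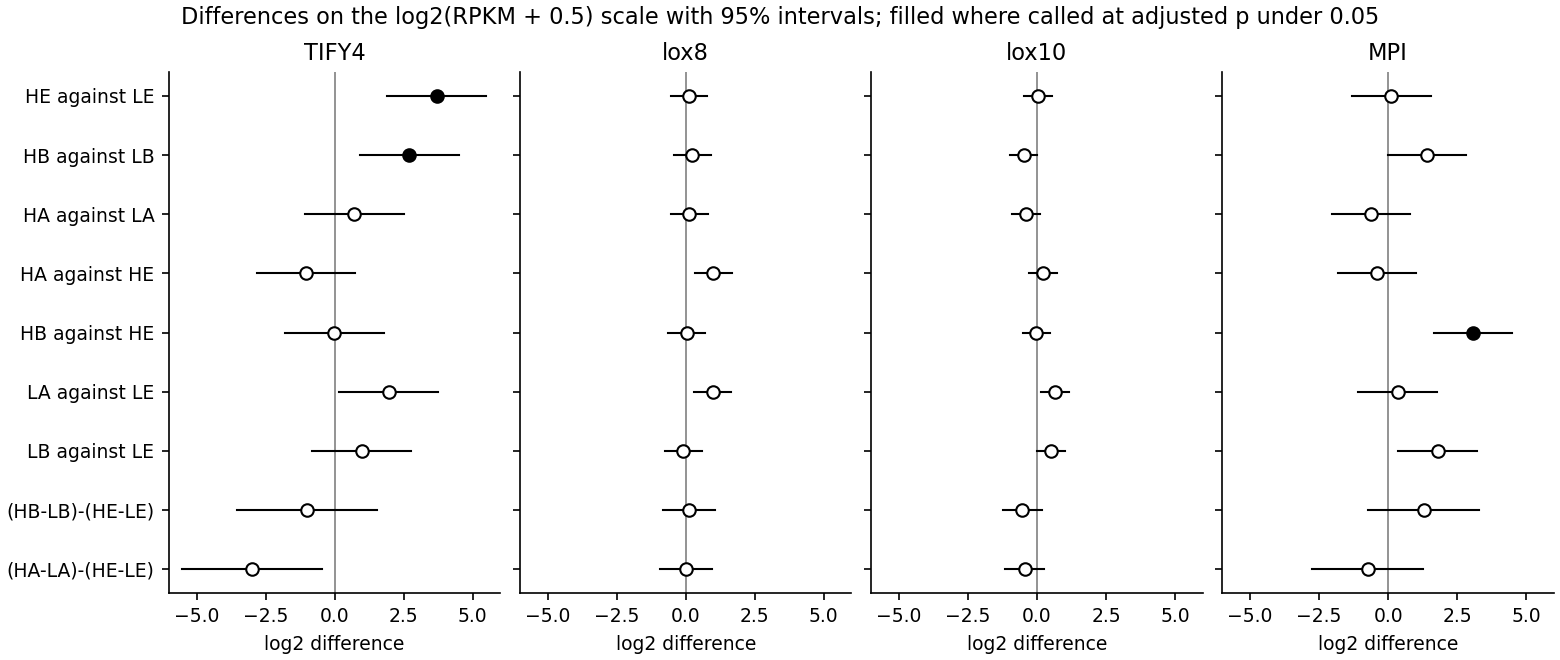
Log2 differences of the 4 members in 7 comparisons between groups and 2 interactions, with 95% intervals from limma; filled points are called at an adjusted p under 0.05. Filled points are TIFY4 in HE against LE (3.70) and HB against LB (2.71) and MPI in HB against HE (3.08).

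MPI, a wound-inducible inhibitor, had its highest levels in the lower leaf. It had 530, 790 and 589 RPKM in HB, against 34.8, 132 and 86.5 RPKM in HE. Every HB library lay far above the highest HE library, and 49.0% of tested genes had groups that did not overlap here. The mean was 636 ± 137 RPKM in HB and 84.3 ± 48.5 RPKM in HE (SD, n = 3 each), a ratio of 7.55. The log2 difference of 3.08 ± 0.67 was called (SE; limma adjusted p = 0.00280), as were 27.9% of genes, 17.2% higher and 10.7% lower. Higher calls made up 61.8% of these (47.4% after median-ratio rescaling and 49.5% after quantile normalization). MPI was called under both rescalings and without any 1 of the 6 libraries, with a limma adjusted p of at most 0.0192.

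At low density MPI had 278, 243 and 193 RPKM in LB, against 61.1, 102 and 49.5 RPKM in LE. These libraries did not overlap either, as held for 13.9% of genes. The difference of 1.79 ± 0.67 was not called (SE; unadjusted p = 0.0163, limma adjusted p = 0.289), where 0.288% of genes were. In the upper leaf MPI had 39.8, 192 and 22.6 RPKM in HA, against 35.7, 86.3 and 205 RPKM in LA. Both groups held a library several times above their lowest one, HA replicate 2 and LA replicate 3. In order of mean level the groups ran from HB through LB, LA, HA and HE to LE, and of these neighbours HB and LB alone were separate.

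By density, the 3 HB libraries of MPI lay above the 3 of LB, in a comparison where 39.9% of tested genes did not overlap, and the HB mean was 2.67 times the LB mean. The log2 difference was 1.41 ± 0.67 (SE; 95% interval -0.01 to 2.83; limma adjusted p = 0.116), which was not called in the fit of all 18 libraries. The spread in that fit is shared by all groups, and the highest MPI library of a group was 8.52 times the lowest in HA, 5.74 times in LA and 3.79 times in HE, against 1.49 times in HB and 1.44 times in LB. With only the HB and LB libraries in the fit, the same difference had an adjusted p of 0.00627. Between HE and LE the difference was 0.12 (95% interval -1.30 to 1.54), and between HA and LA it was -0.62 (-2.03 to 0.80). The interaction of the lower with the ear leaf was 1.29 ± 0.95 (SE; limma adjusted p = 0.472), so a density difference particular to the lower leaf was not shown. MPI made up 62.0% ± 5.11 of the summed RPKM of 12 proteinase inhibitor gene models in HB, against 40.03% ± 6.02 in LB, 20.1% ± 9.47 in HE and 17.7% ± 4.36 in LE (SD, n = 3 each).

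The members differed in the group with the highest mean, which was HE for TIFY4, HA for lox8, LA for lox10 and HB for MPI. For all but MPI that group overlapped the next. By median, TIFY4 was higher in HB (15.6 RPKM) than in HE (11.8 RPKM). Genes most like each member were sought by the root mean square difference of log2(RPKM + 0.5) over the 18 libraries, each gene centred on its own mean, among genes with a name. For MPI they were AGA3a (GRMZM2G050177) at 0.68, AGA3b (GRMZM2G037265) at 0.74 and the allene oxide synthase gene aos1 (GRMZM2G067225) at 0.78, against 1.46 for the spread of MPI itself. AGA3a was also the nearest of all 21183 other tested genes. aos1 had a mean of 101 ± 28.4 RPKM in HB, against 46.4 ± 9.19 in LB, 33.1 ± 19.5 in HE and 7.54 ± 2.78 in HA (SD, n = 3 each). For lox8 they were calmodulin (GRMZM2G444621), the cell wall invertase gene incw1 (GRMZM2G139300) and CNR2 (GRMZM2G151230), at 0.31 to 0.35 against 0.60 for lox8 itself. The nearest to lox10 were arpp1a (GRMZM2G032315), ZCN14 (GRMZM2G373928) and rps24 (GRMZM2G091383), at 0.24 to 0.28 against 0.35 for lox10 itself. The nearest named genes to TIFY4 were at 0.996 to 1.05, against 1.68 for TIFY4 itself. They were a gene model named Rhodopsin (GRMZM2G066197), MYB112 (GRMZM5G803308) and dbf1 (GRMZM2G061487), an AP2 factor of the dehydration response.

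**Figure D3:**
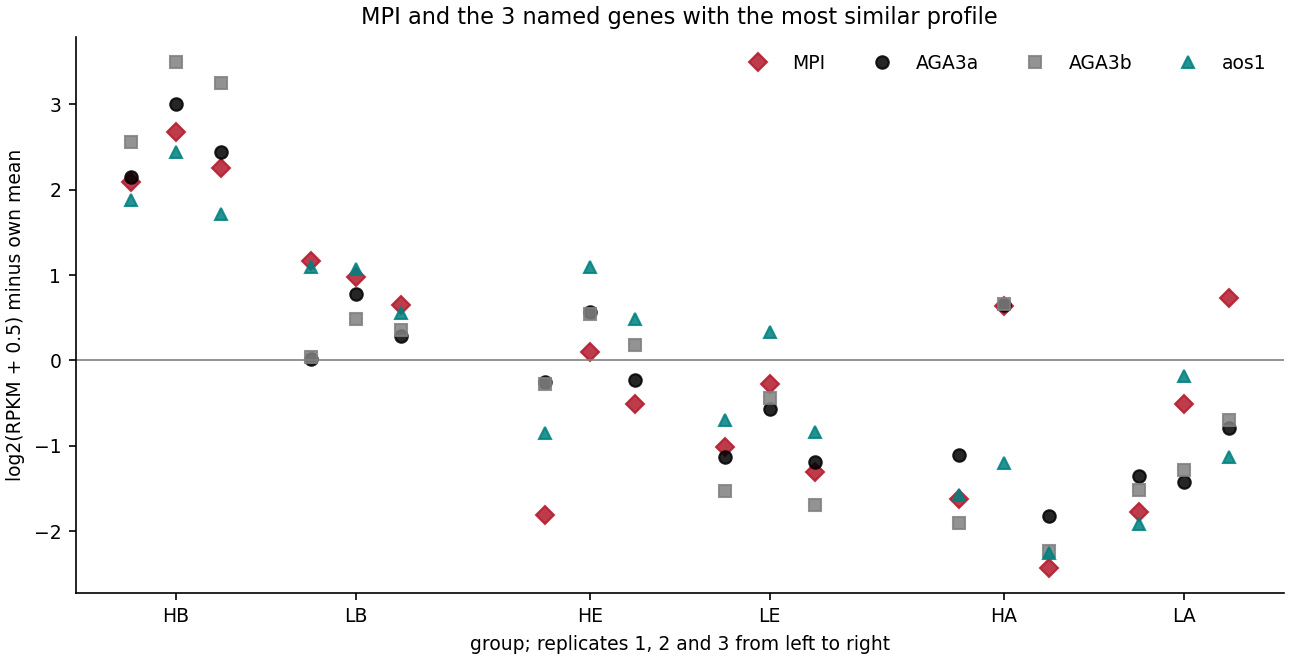
Log2(RPKM + 0.5) minus each gene's own mean for MPI, AGA3a, AGA3b and aos1 in the 18 libraries, by group. All 4 genes are highest in the 3 HB libraries, and MPI lies above the other 3 genes in LA replicate 3 and below them in HE replicate 1.

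Other genes of the pathway were read from lists of RefSeq gene names without the 4 members. These lists too were chosen with earlier results of these data known. Of the 35 tested genes of the jasmonate lists together (TIFY, lipoxygenase, synthesis and MYC2a), 14 rose and 2 fell in HB against LB, 45.7% against 33.4% of all genes. After median-ratio rescaling 7 rose and 5 fell, and after quantile normalization 7 rose and 4 fell. With 1 library left out, 5 to 12 rose, with 5 without LB replicate 3, 6 without HB replicate 2 and 8 without HB replicate 3. In HE against LE 1 rose, 2.86% against 13.9% of all genes. That count was 0 after quantile normalization and without HE replicate 2, HE replicate 3 or LE replicate 3, 3 without HE replicate 1 and 2 under the replicate block. In HA against LA limma called 0, with 0 at an unadjusted p under 0.05, against 0.118% and 8.8% of all genes. In the lower leaf 9 of the 15 tested TIFY genes rose in HB against LB and 1 fell, with a median log2 difference of 0.40, where 22.1% of all genes rose, 11.3% fell and the median was 0.16. A further 5 listed TIFY genes were below the filter. TIFY6 (GRMZM2G117513) had 92.9, 116 and 104 RPKM in HB, against 62.3, 64.5 and 40.5 RPKM in LB, and rose (log2 difference 0.92 ± 0.16 SE; limma adjusted p = 0.000489). TIFY2 (GRMZM5G838098), at 1.83, 3.96 and 2.90 RPKM in HB and 0.982, 0.290 and 0.249 RPKM in LB, rose by 1.78 (limma adjusted p = 0.00147), and TIFY30 (GRMZM2G143402) rose by 0.40 (limma adjusted p = 0.00711). TIFY30 was no longer called after median-ratio rescaling (adjusted p = 0.0951). The count of 9 rested on scaling and on single libraries. After median-ratio rescaling, which moved the median of all genes from 0.16 to 0.01, 4 rose and 3 fell. With 1 library left out, 3 to 8 rose, the fewest without LB replicate 3.

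In the ear leaf 1 of the 15 other TIFY genes was called. TIFY2 had 0.555, 1.68 and 1.53 RPKM in HE, against 0.422, 0 and 0.208 RPKM in LE, and rose (log2 difference 1.28 ± 0.36 SE; limma adjusted p = 0.0274). That call was lost when replicate 2 or 3 of either group was left out (adjusted p up to 0.119) and after quantile normalization (0.0507). The median of the 15 was 0.14, against 0.03 for all genes, and 4 had an unadjusted p under 0.05, as did 30.1% of all genes. In the upper leaf limma called 0 of 15 between HA and LA, with 0 at an unadjusted p under 0.05, where 0.118% of all genes were called and 8.8% had an unadjusted p under 0.05.

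Of 8 other lipoxygenase genes tested, 4 rose and 1 fell in HB against LB, where 22.1% of all genes rose and 11.3% fell. Their median was 0.67, against 0.16 for all genes. lox6 (GRMZM2G040095) fell by 1.03 on the log2 scale (limma adjusted p = 0.00545), with 82.6, 101 and 93.8 RPKM in HB, against 158, 233 and 182 RPKM in LB. lox4 (GRMZM2G109056) rose by 1.77 (limma adjusted p = 0.00945), with 11.1, 60.8 and 11.9 RPKM in HB, against 10.2, 3.10 and 5.31 RPKM in LB. HB replicate 2 alone was far above LB for lox4. lox5 (GRMZM2G102760), of which lox4 is a close paralog, rose by 1.11 (limma adjusted p = 0.0293) at a mean of 2.01 RPKM in HB and 0.665 RPKM in LB, a call that needed HB replicate 2 and LB replicates 1 and 3. With 1 library left out, 1 to 4 lipoxygenases rose, the fewest without HB replicate 2 or without LB replicates 1 or 3. After median-ratio rescaling 2 rose and after quantile normalization 1 rose. None of the 8 was called between HE and LE or between HA and LA, where 13.9% and 0.118% of all genes were. In limma 1 and 0 had an unadjusted p under 0.05, against 30.1% and 8.8% of all genes.

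**Figure D4:**
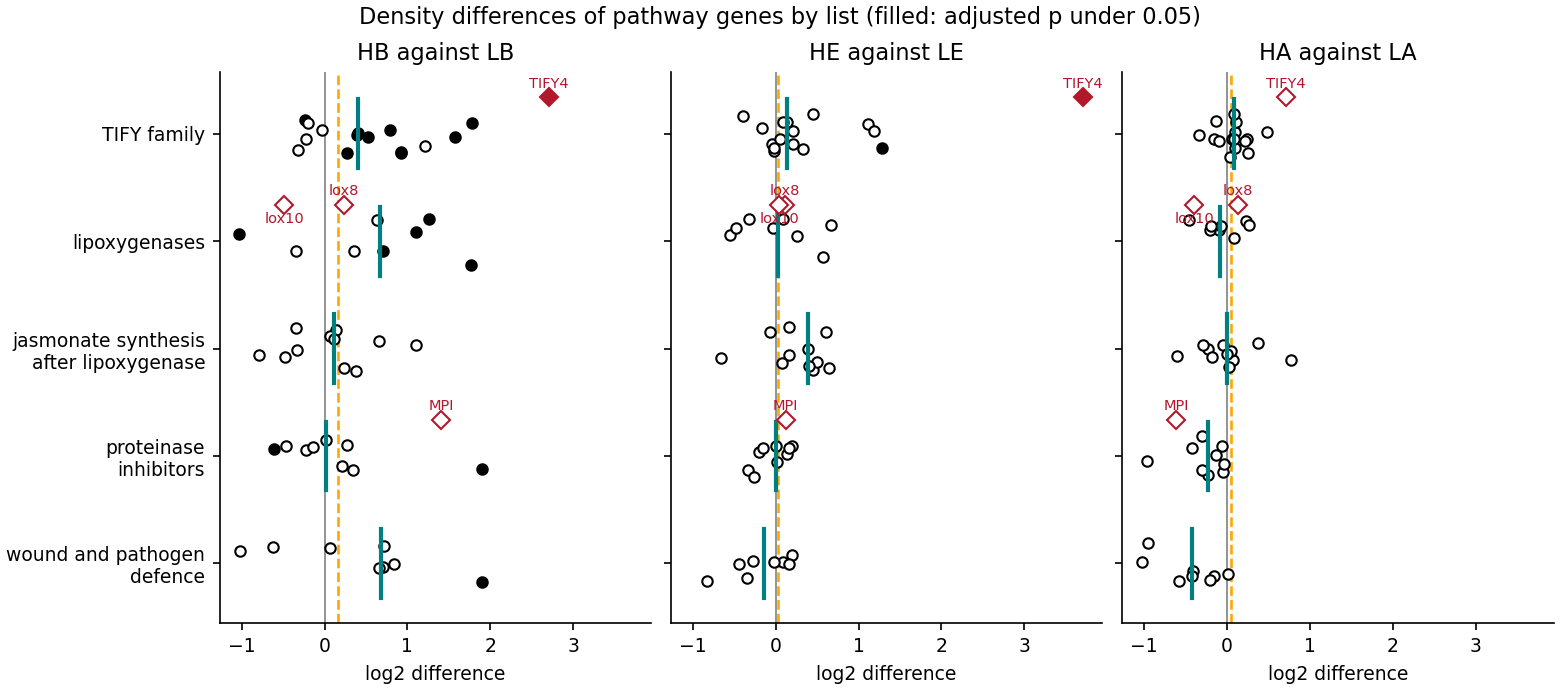
Log2 density differences of the tested genes of 5 lists (circles) and of the members (red diamonds), filled where called, with each list's median as a teal bar and the median of all tested genes as a dashed line. In HB against LB, 9 TIFY genes and 4 lipoxygenase genes are filled to the right of 0.

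The 11 tested genes of jasmonate synthesis after the lipoxygenase step held 0 called in each of the 3 density comparisons, where 33.4% (HB against LB), 13.9% (HE against LE) and 0.118% (HA against LA) of all genes were called. limma gave 3, 1 and 0 of them an unadjusted p under 0.05 in HB against LB, HE against LE and HA against LA, with medians of 0.11, 0.39 and -0.01. Of all genes, 43.8%, 30.1% and 8.8% had an unadjusted p under 0.05 in these 3 comparisons. In HB against LB 1 gene of this list was called lower after either rescaling and without HB replicate 1, and 1 was called higher under the replicate block. aos1 was at 1.11 ± 0.47 in HB against LB (SE; limma adjusted p = 0.0800). By position, limma called 1 of the 11 higher in HB against HE, where 27.9% of all genes were called. In LA against LE it called 1 higher, where 5.74% were, and in LB against LE 0, where 0.288% were. In HA against HE 2 were called, where 2.44% of all genes were, and they are named here after their values were seen. aoc2 (GRMZM2G415793), an allene oxide cyclase, rose by 0.88 (limma adjusted p = 0.0268) and aos1 fell by 1.92 (limma adjusted p = 0.0392), and both calls were lost without some single libraries (adjusted p up to 0.163 and 0.201). MYC2a (GRMZM2G001930), named for the transcription factor that JAZ proteins inhibit, had 38.5, 32.9 and 35.2 RPKM in HB, against 20.3, 22.9 and 21.6 RPKM in LB, and rose (log2 difference 0.71 ± 0.17 SE; limma adjusted p = 0.00578). It was at 0.51 ± 0.17 between HE and LE, which was not called (SE; limma adjusted p = 0.0610) but was called under the replicate block, without HE replicate 1 and without LE replicate 2.

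Of 9 other proteinase inhibitor genes tested, 1 rose and 1 fell in HB against LB, a share no higher than the 33.4% of all genes called there. wip1 (GRMZM2G156632), a Bowman-Birk type wound-induced inhibitor, rose by 1.90 (limma adjusted p = 0.0388), with 10.5, 23.6 and 33.6 RPKM in HB, against 15.6, 2.21 and 3.46 RPKM in LB. The wip1 libraries overlapped, and the call was lost when replicate 2 or 3 of either group was left out (adjusted p up to 0.142) and after either rescaling (0.0656 and 0.0623). The cystatin gene cc3 (GRMZM2G440968) fell by 0.61 on the log2 scale (limma adjusted p = 0.0291), a call lost without some single libraries (adjusted p up to 0.134). With 1 library left out, 0 to 3 of the 9 rose in HB against LB: 3 when HB replicate 1 was dropped, and 0 when HB replicate 2, LB replicate 2 or LB replicate 3 was dropped. None of the 9 was called in HE against LE or HA against LA, where 13.9% and 0.118% of all genes were. In each, 1 had an unadjusted p under 0.05 in limma, as did 30.1% and 8.8% of all genes. In HB against HE, where MPI was called, wip1 rose by 3.28 (limma adjusted p = 0.00192), and 3 of the 9 rose and 0 fell, where 17.2% of all genes rose and 10.7% fell. That count was 1 after either rescaling and 1 to 3 with 1 library left out, lowest without HB replicate 2 or without HE replicates 1 or 2. Of 8 genes of wound and pathogen defence, wip1 again was the 1 called in HB against LB, where 33.4% of all genes were. Their median of 0.68 rested on single LB libraries: it was -0.38 without LB replicate 2 and 1.28 without LB replicate 1. limma called 0 of them in HE against LE and HA against LA, against 13.9% and 0.118% of all genes. At an unadjusted p under 0.05 there were 0 and 0, against 30.1% and 8.8% of all genes.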

How the data were processed

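RNA from 18 leaf libraries was grouped by title. Per the labels, RNA came from a phenol-type extraction and an NEBNext Ultra kit. The submitters' processing notes name Trimmomatic 0.35, HISAT 0.1.6, HTSeq 0.6.1 and B73 RefGen_v3. The authors deposited RPKM values per gene model. How lengths, strand and reads shared by several genes entered those values was not given in the sources used here, so overlapping, antisense and near-identical genes cannot be told apart.

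From these values, log2(RPKM + 0.5) of the 21184 genes that reached 1 RPKM in 3 or more libraries was fitted in limma 3.58.1 under R 4.3.3 as 6 group means with a trended prior variance (12 residual, 4.47 prior degrees of freedom). Tests were two-sided, and p-values were Benjamini-Hochberg adjusted over all genes of a comparison and called under 0.05. For single values, exact permutation of 3 against 3 libraries can reach 0.1 at the lowest, so none is given. The fit was also run on simulated data with the same independent noise in every group, so that run does not bear on the calls reported here. Relative depth was recovered from 3012 rare genes, of whose 4804 values above 1 read 98.7% were whole multiples within 0.1 (evenly spread values would give 20%). Read totals are unknown, and no counting interval was computed.

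Names came from RefSeq for Zm-B73-REFERENCE-NAM-5.0, an assembly other than that of the files, matched by ID for 17838 gene models and used without its positions. The members and lists were chosen with earlier results of these data known. Named genes were the members, up to 3 called genes of lowest adjusted p per list and density comparison, and the 3 named genes nearest each member. Alternatives covered scaling, pseudocount, filter, libraries fitted, replicate block and each library left out. Same-numbered libraries counted as paired where all 3 correlations of their deviations from group means exceeded 0.1. Among the groups compared this held for HA with HE (0.137 to 0.189), from the data and not from the labels. It also held for HA with LB (0.187 to 0.257), which differ in density and position and were not compared. Meeting the rule therefore does not show that same-numbered libraries came from the same plants.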

Additional observations from a re-analysis of the deposited data

How the results depend on the processing

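Of 520 alternative values of the 36 member differences, 471 had the direction of the main value and its side of the threshold, 4 lost a call, 4 gained one and 41 changed sign, all of these where no call was made. With 1 library left out, the TIFY4 difference ranged over 2.69 to 4.77 in HE against LE and 2.09 to 3.59 in HB against LB, which includes the lost calls given above. MPI in HB against HE was called throughout, at 2.55 to 3.50. Ranges that crossed 0 were -0.034 to 1.20 (HA against LA), -1.09 to 0.998 (HB against HE) and -2.06 to 0.025 (interaction of the lower with the ear leaf) for TIFY4. For lox8 they were -0.18 to 0.49 (HB against LB), -0.068 to 0.28 (HA against LA), -0.28 to 0.28 (HB against HE), -0.33 to 0.33 (LB against LE), -0.30 to 0.37 and -0.18 to 0.17 (interactions of the lower and the upper leaf with the ear leaf). For lox10 they were -0.12 to 0.23 (HE against LE), -0.077 to 0.36 (HA against HE) and -0.20 to 0.10 (HB against HE). For MPI they were -0.30 to 0.65 (HE against LE), -1.50 to 0.029 (HA against LA), -1.28 to 0.25 (HA against HE) and -0.28 to 0.97 (LA against LE). Quantile normalization changed the sign of lox10 in HE against LE (-0.046) and HB against HE (0.14), and of lox8 in HB against LB (-0.012), HB against HE (-0.11) and the lower-leaf interaction (-0.012). Median-ratio rescaling changed the sign of lox8 in HB against HE (-0.083) and the upper-leaf interaction (-0.010). The cause of these changes was not tested. Calls were gained with only the compared libraries for MPI in HB against LB (1.41) and lox8 in HA against HE and LA against LE (0.99 and 0.98), and the fit of HA and HE libraries with a replicate block, chosen after seeing the data, also gained lox8 (0.99).

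Genes called over the whole table, with 1 library left out, were 901 to 2514 against 2953 from all libraries in HE against LE, 4601 to 8973 against 7070 in HB against LB, 2 to 17 against 25 in HA against LA, 158 to 818 against 516 in HA against HE, 4322 to 5047 against 5904 in HB against HE, 111 to 891 against 1215 in LA against LE, 23 to 89 against 61 in LB against LE, 221 to 2933 against 815 in the lower-leaf interaction and 0 to 31 against 0 in the upper-leaf interaction. With only the compared groups 4264, 2 and 19 were called in HB against LB, HA against LA and LB against LE. A pseudocount of 0.1 gave 13 in HA against LA, and no filter gave 2 in the upper-leaf interaction.

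The replicate block over all libraries gave 871 calls in HA against HE (987 with those libraries alone), 2320 in LA against LE, 195 in LB against LE, and 1566 and 12 in the lower-leaf and upper-leaf interactions. It changed no other call of a member. Among the other groups compared, all 6 libraries correlated best with their own number for HB with LB and for LA with LE, as a hint from the data, while 2 did for HA with LA, 3 for HB with HE, for HE with LE and for LB with LE. All 6 also correlated best with their own number for HA with LB and HE with LA, unlike in position and titled density. The TIFY4 reads limit its LE level (5 to 7 reads).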

Other observations

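Some values outside the comparisons were picked out after they were seen. LA replicate 3 had the lowest TIFY4 level of its group (0.721 RPKM) together with the highest MPI (205 RPKM) and lox10 (976 RPKM) levels. HA replicate 2 had the highest MPI (192 RPKM) and lox10 (881 RPKM) levels of its group, while its TIFY4 level (5.10 RPKM) lay between those of the other 2. Within several groups 1 library was highest for most of the 35 other jasmonate-pathway genes tested: HE replicate 2 and LE replicate 2 in 21 each, HA replicate 2 in 20, and HB replicate 2 and LA replicate 2 in 19 each. LB replicate 2 was highest in 17 and LB replicate 1 in 16. The shares over all tested genes were not computed, so these counts do not show a trait of jasmonate genes. In HB against HE, limma called 4 of the 8 other lipoxygenase genes tested higher and 1 lower. Of all genes, 17.2% rose and 10.7% fell there. The lox11 call was lost after median-ratio rescaling (limma adjusted p = 0.058). Named here are the 2 genes with the lowest adjusted p of that list. lox12 fell by 1.44 on the log2 scale (limma adjusted p = 0.000111) and lox3, a 9-lipoxygenase in maize, rose by 2.02 (limma adjusted p = 0.00280). AGA3b averaged 31.7 RPKM in HB and 3.98 RPKM in LB, and AGA3a 14.2 RPKM in HB and 2.76 RPKM in LB.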
